A study of Mus musculus with 6 samples.

Results

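The genes described here encode proteins of the spliceosome and the RNA-binding splicing factors around it: Sm, LSm and other snRNP proteins, the U2 snRNP and U2AF, Prpf factors, SR proteins and hnRNP proteins, together with Pnn, Cdc40 and Rsrc1. They were taken by gene symbol from the probes that the platform annotation gives exactly 1 gene, which found 52 probes of 37 genes. After probes at exactly 0 on all 6 arrays were dropped, 49 probes of 36 genes remained, out of 4742 genes with 1 symbol, and the probes of a gene were averaged. Snrpd1, which encodes a core Sm protein, dropped out because its probe was at exactly 0 throughout. A further 129 probes name such a gene beside another gene and were not used. Pnn, Cdc40 and Rsrc1 had been added to the selection because an earlier analysis of the same arrays placed a probe of each among its smallest p-values, so their differences are a description here and support nothing.

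The spliceosome removes introns from pre-mRNA. U1 snRNP recognises the start of an intron, U2AF and U2 snRNP recognise its end and branch site, and the tri-snRNP of U4, U6 and U5 then joins and is rearranged into the catalytic complex, in which Prpf and related proteins act. SR proteins mostly favour the use of nearby exons and hnRNP proteins often oppose it, though both depend on where they bind. The early mouse embryo starts from transcripts stored in the egg, and once its own genome is active the new pre-mRNAs have to be spliced.

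Mouse eggs arrested in metaphase II were activated without sperm, 1 group with cycloheximide, an inhibitor of protein synthesis, and the other with strontium chloride, which makes the egg release calcium. Both groups also received cytochalasin D, which keeps the polar body in the egg, and were then grown in KSOM medium for 60 h, so every embryo lacked a paternal genome. Each group has 3 two-colour Agilent arrays, each with mRNA equivalent to 25 embryos in Cy3, amplified in 2 rounds, against Universal Mouse Reference RNA in Cy5, amplified in 1 round. The labels give neither the strain nor the developmental stage reached. They also leave unsaid whether replicate arrays hold separately cultured embryos, so the p-values speak only of the spread among these arrays, which may be technical. The title of the series poses the question of whether activation without a calcium signal alters later gene expression.

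Values are log2 ratios of embryo over reference. This direction is likely rather than stated, since it rests on the dyes and the red over green convention of the scanner software. If it were the opposite, every sign of a level or difference would turn. With it, 4 of the 6 measured markers of the preimplantation embryo were above the reference on all 6 arrays, among them Nanog between 0.39 and 1.14 and Dppa3 between 5.10 and 6.64, while Krt18 lay on both sides of 0 and Gata3 between -0.51 and 0.12. All 3 measured fibroblast genes were below the reference on all arrays, with array medians of -5.55 to -4.80 after cycloheximide and -5.73 to -3.96 after strontium. The 2 measured cumulus and granulosa genes had array medians of 0.00 to 0.47 after cycloheximide and -0.60 to 0.13 after strontium, and the 2 blood genes -1.35 to -0.43 and -1.36 to -0.94. The blood genes went opposite ways. S100a8 was above the reference on all 6 arrays, between 0.27 and 0.72, and Ptprc below it, between -3.41 and -1.44. The part of such cell types in the results was not tested. Fewer cells of a type and less RNA per cell cannot be told apart in such pooled embryos. Across all probes, array 3 of cycloheximide correlated at 0.909 with array 3 of strontium, and less closely, at 0.762 and 0.810, with the other cycloheximide arrays. Array 3 of cycloheximide thus stood apart from the rest of its group. Array 3 of strontium did so less, with 0.887 and 0.878 to the other strontium arrays, which correlated at 0.918 with each other. For genes described in full, the difference without array 3 of cycloheximide is given where it moved by more than 1.5 times.

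The splicing factors were found on both sides of the reference. Of the 36 genes, 15 were above it on all 6 arrays, or 41.7%, against 36.0% of all genes. A further 16 were below it on all 6 arrays, or 44.4%, against 24.6% of all genes. The remaining 5 genes, Cdc40, Hnrnpab, Prpf38a, Sf3b2 and Srsf3, lay on both sides. The median log2 ratio of every array was itself above 0, between 0.10 and 0.20. With each array centred on its median, 11 of the splicing factors were above 0 on all 6 arrays and 16 below. The share of all genes was not counted with that centring. These counts rest on averages over probes, which could lie on opposite sides. Srsf2 and Srsf6 counted as below, although probe 12354 of Srsf2 and probe 17395 of Srsf6 were above the reference on all 6 arrays. Sf3a3 counted as above, although its probe 3291 was below it on all 6 arrays. Among the families, 6 of 9 hnRNP genes were below the reference throughout, and 3 of 4 Prpf genes above it. Because the reference carries another dye and fewer rounds of amplification on every array, a ratio to it is a description of the gene's probe and not a measured level.

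**Figure D1:**
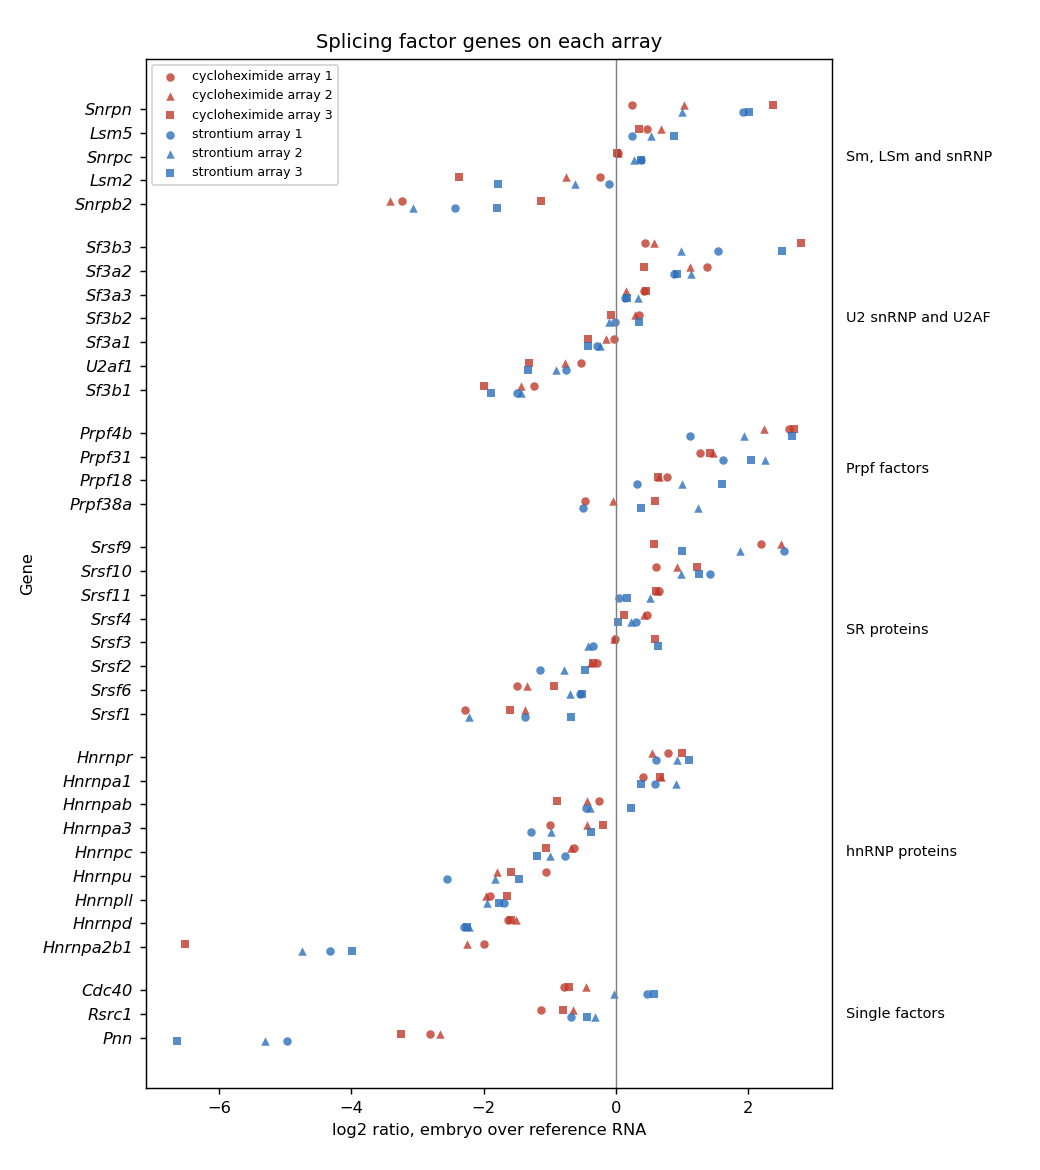
Log2 ratio of embryo over reference RNA (x axis) for each of the 36 splicing factor genes (y axis, grouped by family), averaged over the probes of a gene. Each symbol is 1 array, red for cycloheximide and blue for strontium, with a circle, triangle and square for arrays 1, 2 and 3. The genes lie on both sides of 0, and Pnn and Hnrnpa2b1 reach the lowest ratios, -6.64 and -6.52.

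No splicing factor passed the test between the activation groups. By limma, 0 of the 36 genes differed at an adjusted p of 0.05, as did 0.00% of all 4742 genes, and the lowest adjusted p among the splicing factors was 0.588. At an unadjusted p under 0.05, 2 genes were higher after cycloheximide, Pnn and Hnrnpd, which is 5.56% against 4.28% of all genes. On the lower side were 3 genes, Cdc40, Srsf6 and Prpf31, or 8.33% against 2.36%. In 8 genes all arrays of 1 group lay beyond all arrays of the other: Pnn, Hnrnpd, Srsf2 and Srsf11 on the higher side, or 11.1% against 6.01%, and Cdc40, Srsf6, Prpf31 and Snrpc on the lower side, or 11.1% against 5.90%. Of the 33 genes chosen by family alone, 3 lay apart on each side, or 9.09%. With all 6 arrays, 1 of the 33 was higher and 2 were lower at an unadjusted p under 0.05, or 3.03% and 6.06%. Without array 3 of strontium 4 of the 36 genes, Pnn among them, were higher at an unadjusted p under 0.05, against 4.62% of all genes. Without array 1 of cycloheximide only Cdc40 was lower, against 1.27%. Over the 36 genes, 20 differences lay below 0 and 16 above, with a median of -0.04. For all 4742 genes the share below 0 was 54.7% and the median -0.03. For the typical splicing factor the 95% interval of the log2 difference was 0.59 wide on either side.

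Without array 3 of cycloheximide, 3 splicing factors were higher and 3 lower at an unadjusted p under 0.05, which is 8.33% on each side against 7.36% and 11.5% of all genes, and the lowest adjusted p by limma was 0.172. Of the 33 genes chosen by family alone, 2 were higher and 2 lower, or 6.06% on each side. The median difference of the 36 genes was then 0.05, above 0 rather than below it. The added gene was Hnrnpa2b1. The 5 genes that were at an unadjusted p under 0.05 with all arrays were among these 6. For 14 of the 36 genes, or 38.9%, both arrays numbered 3 lay on one side of the other 4 arrays, against 41.7% of all genes. These 14 were Hnrnpa3, Hnrnpc, Hnrnpr, Lsm2, Prpf4b, Sf3a1, Sf3b1, Sf3b3, Snrpb2, Snrpn, Srsf3, Srsf4, Srsf9 and U2af1.

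**Figure D2:**
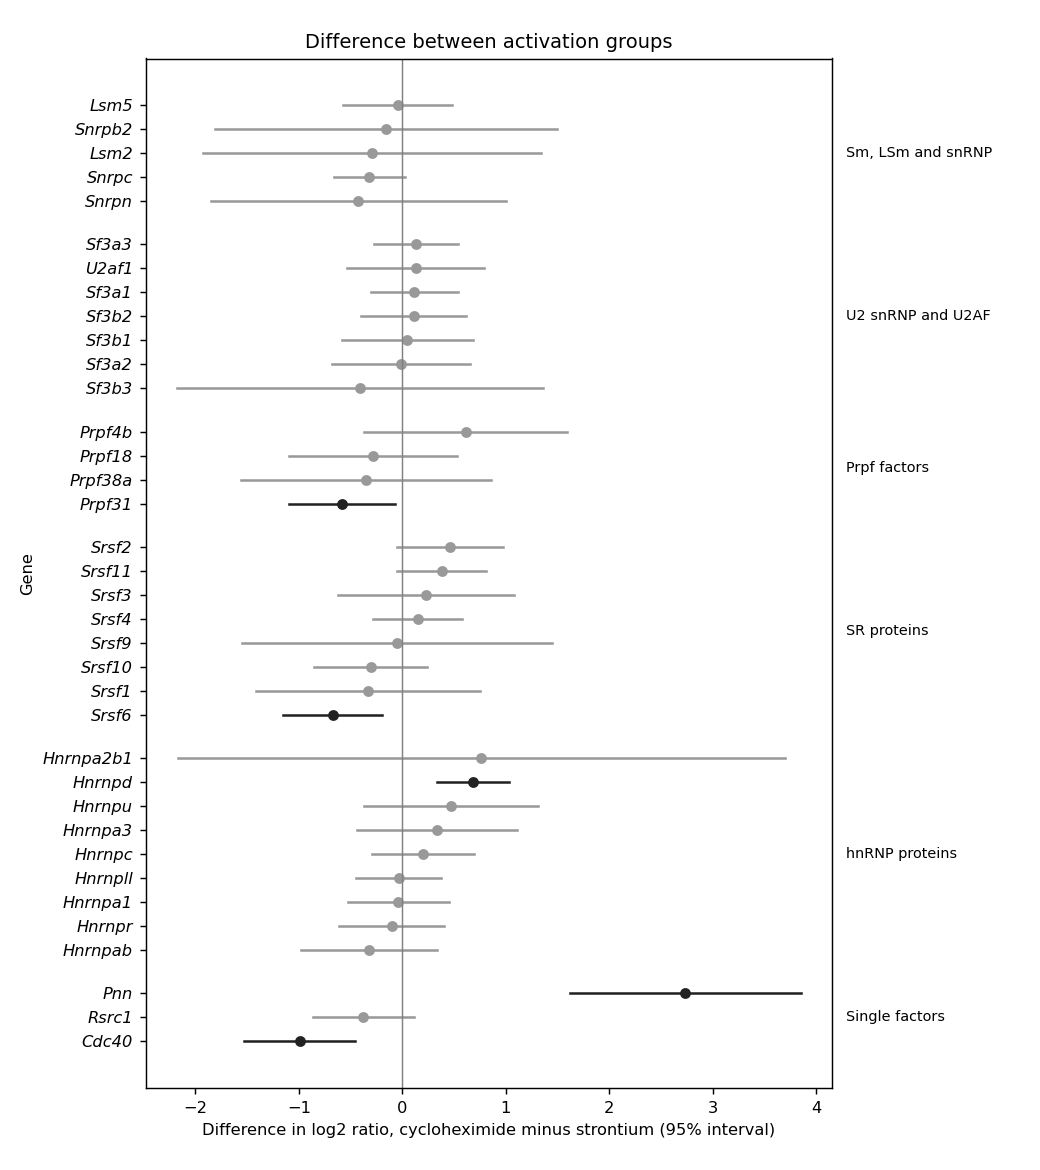
Difference in log2 ratio between the groups, cycloheximide minus strontium (x axis), for each gene by family (y axis), with limma's 95% interval as a bar. Black marks the 5 genes at an unadjusted p under 0.05, of which Pnn (2.74) and Hnrnpd (0.68) lie above 0 and Cdc40, Srsf6 and Prpf31 below it.

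Pnn encodes pinin, an SR-related protein of nuclear speckles. Its single probe read -2.81, -2.66 and -3.26 on arrays 1, 2 and 3 of cycloheximide and -4.97, -5.31 and -6.64 on those of strontium. All arrays were below the reference, and every cycloheximide array was above every strontium array. The difference was 2.74 (SE 0.46, limma adjusted p = 0.588). The value of array 3 of strontium is the lowest the table can hold, so the size is uncertain, and it was 2.24 without that array. Pnn lies on a line, a run of consecutive probe numbers, of which 206 probes were tested. On it 11 probes were higher and 0 lower at an unadjusted p under 0.05, and the median difference of the line was 0.07. With each array centred by line, Pnn differed by 2.64. Such lines follow the probe numbers, and the layout of the slide itself was not used here.

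Cdc40 encodes the factor known in yeast as Prp17, which acts at the second catalytic step. It read -0.78, -0.46 and -0.71 after cycloheximide and 0.47, -0.03 and 0.58 after strontium. The groups did not overlap, and the difference was -0.99 (SE 0.22, limma adjusted p = 0.605). Its line of probe numbers, the fifth, held 21 lower and 6 higher probes at an unadjusted p under 0.05 and had a median difference of -0.15. After centring by line, Cdc40 differed by -0.80.

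Rsrc1 encodes an SR-related protein and was measured by 4 probes that disagreed. Probe 463 read -1.62, -1.16 and -0.54 after cycloheximide and 0.28, -0.25 and 0.23 after strontium, a difference of -1.19 (SE 0.32). Probe 22475 read 0.27, 0.60 and exactly 0 after cycloheximide and 1.36, 1.56 and 1.10 after strontium, a difference of -1.05 (SE 0.23). In both, the groups did not overlap. The other probes lay on the opposite side, probe 11203 at 0.65 (SE 0.60) and probe 13861 at 0.09 (SE 0.23), and their groups overlapped. The average over the 4 probes was -0.38 (SE 0.20, limma adjusted p = 0.831). Probe 463 lies on line 3, which held 28 lower and 2 higher probes at an unadjusted p under 0.05, and probe 22475 on the last line, 105, with 8 lower and 6 higher. The value of exactly 0 is taken as a ratio that was not set, and the difference of -1.05 includes it. With such values missing, the average difference was -0.47. Array 3 of cycloheximide was then averaged without probe 22475, so the probes behind that array also changed.

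Among the hnRNP genes, Hnrnpd had the smallest p. It encodes AUF1, which binds AU-rich elements in mRNA. Its probe read -1.63, -1.50 and -1.59 after cycloheximide and -2.30, -2.22 and -2.25 after strontium. The SD was 0.06 within cycloheximide and 0.04 within strontium, the groups did not overlap, and the difference was 0.68 (SE 0.14, limma adjusted p = 0.605), or 1.60-fold. Hnrnpd stayed between 0.65 and 0.71 whichever array was left out. Its line of probe numbers held 13 higher and 2 lower probes at an unadjusted p under 0.05 and had a median difference of 0.04. After centring by line, Hnrnpd differed by 0.58.

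Hnrnpa2b1 encodes a nuclear protein that binds pre-mRNA and had the lowest ratio of its family. Its probe read -2.0, -2.25 and -6.52 after cycloheximide and -4.32, -4.74 and -3.99 after strontium, while its other probe was at exactly 0 on all arrays. Array 3 of cycloheximide lay below all strontium arrays and arrays 1 and 2 above them. The difference was 0.76 (SE 1.21, limma adjusted p = 0.903) with all arrays and 2.23 (SE 0.26, limma adjusted p = 0.172) without array 3 of cycloheximide. The value left out, -6.52, lies close to -6.64, the lowest the table can hold. For cycloheximide, the 2.23 rests on arrays 1 and 2 only.

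Hnrnpab had the smallest p on the lower side. It read -0.26, -0.44 and -0.89 after cycloheximide and -0.44, -0.40 and 0.22 after strontium, with overlapping groups and a difference of -0.32 (SE 0.27). Hnrnpab lies on the line next to that of Cdc40, where 22 probes were lower and 6 higher at an unadjusted p under 0.05, and its difference was -0.18 after centring by line. It was -0.14 without array 3 of cycloheximide and -0.11 without array 3 of strontium. Hnrnpr, with the highest ratio of the family, read 0.79, 0.55 and 1.00 against 0.61, 0.93 and 1.11 and differed by -0.10 (SE 0.21), or by -0.21 without array 3 of cycloheximide. The other 5 genes, Hnrnpa1, Hnrnpa3, Hnrnpc, Hnrnpll and Hnrnpu, differed by -0.04, 0.33, 0.20, -0.04 and 0.47, and in each the groups overlapped. Of the 2 probes of Hnrnpa3, 1 was at exactly 0 on 5 arrays. Over the 9 hnRNP genes 5 differences lay above 0, with a median of 0.20. The median was 0.0508 without array 1 of cycloheximide, 0.0939 without array 2 of cycloheximide and 0.0969 without array 3 of strontium.

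Of the 8 SR protein genes, 4 lay above 0 and 4 below, with a median of 0.05. The median ran from -0.0984, without array 2 of cycloheximide, to 0.14, without array 1 of strontium, when 1 array was left out, and was 0.22 with array weights. Srsf6 was at -1.49, -1.34 and -0.94 after cycloheximide and -0.54, -0.69 and -0.52 after strontium as the average of its probes. The groups did not overlap, and the difference was -0.67 (SE 0.20, limma adjusted p = 0.717), or 1.59-fold. Probe 7994 alone carried it: it read -3.35, -2.74 and -1.99 against -1.30, -1.75 and -1.21, a difference of -1.27 (SE 0.38). Probe 17395 differed by -0.07 (SE 0.17), with groups that overlapped and values between 0.06 and 0.37.

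Srsf2 had the smallest p on the higher side. It was at -0.28, -0.38 and -0.35 after cycloheximide and -1.14, -0.79 and -0.47 after strontium. The groups did not overlap, although array 3 of strontium came close to the cycloheximide arrays, and the difference was 0.46 (SE 0.21, limma adjusted p = 0.792). Srsf11 was at 0.65, 0.62 and 0.61 against 0.05, 0.51 and 0.18, with no overlap and a difference of 0.38 (SE 0.18). Both probes of each of these genes lay above 0, at 0.59 and 0.34 for Srsf2 and at 0.14 and 0.62 for Srsf11. In each probe of Srsf2 the groups overlapped, so they lay apart only in the average of its probes. For Srsf11 the groups overlapped in probe 2267 and lay apart in probe 17733.

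Srsf1, the founding SR protein, had the lowest ratio of the family. It read -2.29, -1.37 and -1.60 after cycloheximide and -1.37, -2.22 and -0.68 after strontium and differed by -0.33 (SE 0.45), with overlapping groups. Its line of probe numbers had a median difference of -0.36, with 16 lower and 7 higher probes at an unadjusted p under 0.05, and Srsf1 differed by -0.18 after centring by line. Srsf9 had the highest. It read 2.20, 2.50 and 0.58 after cycloheximide and 2.54, 1.88 and 1.01 after strontium, so both arrays numbered 3 were lower than the rest. Its difference was -0.05 (SE 0.62) with all arrays and 0.54 without array 3 of cycloheximide. Srsf3, Srsf4 and Srsf10 differed by 0.23, 0.15 and -0.30.

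All 4 Prpf genes had 1 probe each. Prpf31, needed to assemble the tri-snRNP, read 1.27, 1.47 and 1.43 after cycloheximide and 1.63, 2.26 and 2.04 after strontium. All arrays were above the reference, the groups did not overlap, and the difference was -0.58 (SE 0.21, limma adjusted p = 0.740). Prpf4b, a kinase that phosphorylates tri-snRNP proteins, read 2.63, 2.24 and 2.70 against 1.12, 1.95 and 2.66, with overlapping groups and a difference of 0.61 (SE 0.40). Prpf4b differed by 0.22 without array 1 of strontium and by 0.99, at an unadjusted p under 0.05, without array 3 of strontium. Prpf38a, with the lowest ratio of the family, read -0.47, -0.04 and 0.59 against -0.49, 1.25 and 0.38 and differed by -0.35 (SE 0.50), or by -0.63 without array 3 of cycloheximide. Prpf18, a factor of the second catalytic step, differed by -0.28 (SE 0.33).

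The 7 genes of the U2 snRNP and U2AF had differences between -0.41 and 0.13, with 5 above 0 and a median of 0.11. The median was 0.24 without array 3 of cycloheximide, 0.0594 and 0.0076 without arrays 2 and 1 of that group and 0.0070 without array 3 of strontium. None of them was at an unadjusted p under 0.05 and in none were the groups apart. Sf3a3 had the smallest p on the higher side and was at 0.43, 0.16 and 0.46 after cycloheximide and 0.14, 0.33 and 0.16 after strontium, a difference of 0.13 with a 95% interval from -0.27 to 0.54. Without array 3 of cycloheximide it was 0.0795. Sf3b1, which contacts the branch site, read -1.24, -1.43 and -2.0 against -1.49, -1.43 and -1.89, a difference of 0.05 with an interval from -0.58 to 0.68, or 0.27 without array 3 of cycloheximide. Sf3b3, with the highest ratio of the family, read 0.44, 0.58 and 2.80 against 1.54, 0.99 and 2.51. Its arrays numbered 3 were higher than all others in both groups, and it differed by -0.41 (SE 0.73), and by -1.17 without array 3 of cycloheximide. Sf3a1, Sf3a2, Sf3b2 and U2af1, the subunit of U2AF that recognises the end of the intron, differed by 0.12, -0.01, 0.11 and 0.13. The interval of each of the 7 genes included 0.

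All 5 genes of Sm, LSm and other snRNP proteins lay below 0, with a median of -0.29, and 0 were at an unadjusted p under 0.05. Without array 1 of cycloheximide the median was -0.03. Snrpc, which encodes the U1 protein that contacts the start of the intron, had the smallest p. It read 0.03 on each cycloheximide array and 0.38, 0.27 and 0.38 on the strontium arrays. The groups did not overlap, and the difference was -0.32 (SE 0.14, limma adjusted p = 0.784). Snrpb2, the U2 protein that binds the stem loop of U2 snRNA, read -3.23, -3.42 and -1.12 against -2.43, -3.07 and -1.80, a difference of -0.16 (SE 0.68), or -0.89 without array 3 of cycloheximide. Lsm2 and Lsm5, of the ring that binds the end of U6 snRNA, differed by -0.29 (SE 0.67) and -0.05 (SE 0.22).

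Snrpn encodes SmN and is imprinted, with expression from the paternal copy, which neither group holds. It gave ratios above the reference on all 6 arrays, 0.24, 1.04 and 2.38 after cycloheximide and 1.92, 1.01 and 2.01 after strontium. The groups overlapped, and the difference was -0.43 (SE 0.58). Without array 3 of cycloheximide it was -1.01. A ratio above a reference that is a mix of cell lines does not show how much of the transcript was present.

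**Figure D3:**
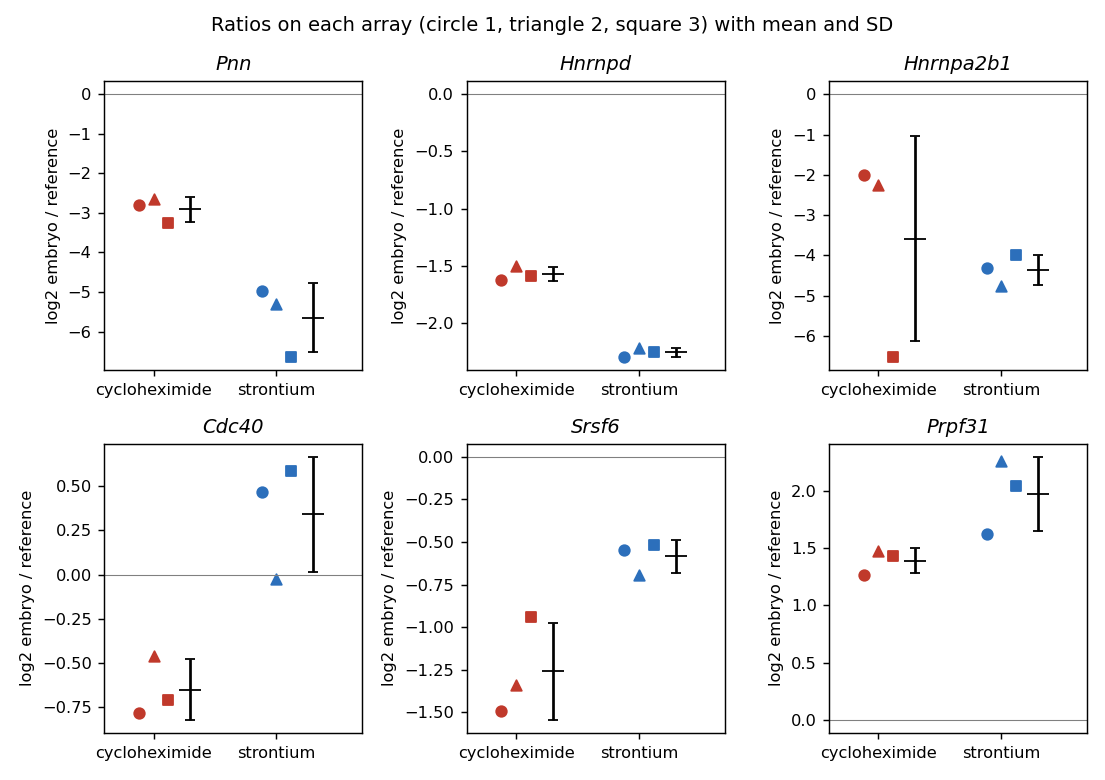
Log2 ratio of embryo over reference (y axis, scaled for each panel) on each array for Pnn, Hnrnpd, Hnrnpa2b1, Cdc40, Srsf6 and Prpf31, with the mean and SD of the 3 arrays of a group in black. The groups do not overlap except in Hnrnpa2b1, where array 3 of cycloheximide is at -6.52 and the others of that group at -2.0 and -2.25.

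Of the 36 genes, 11 were measured by several probes, 24 in all. The mean ratios of probes of the same gene were more than 1 apart in 5 of these genes, up to 3.76 in Rsrc1, and lay on opposite sides of the reference in 6. The differences between the groups had opposite signs in 2 genes, Rsrc1 and Hnrnpa3. Hnrnpa3 enters each of these counts through probe 21709, which was at exactly 0 on 5 arrays. For the 25 genes with 1 probe no such comparison was possible.

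**Figure D4:**
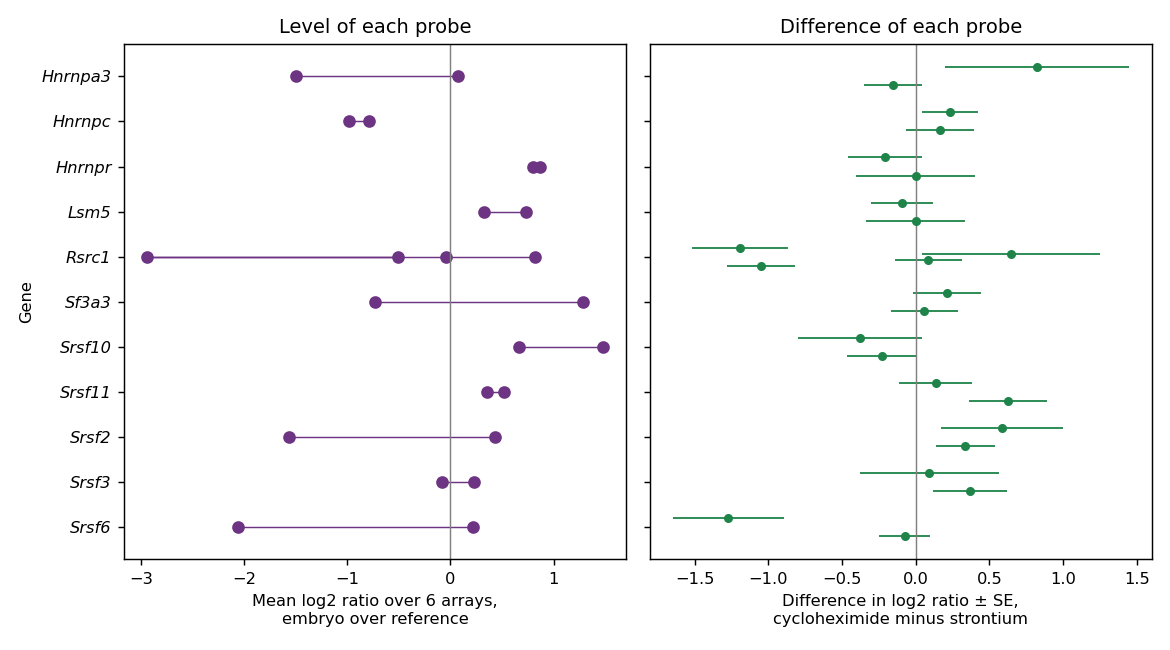
The 11 splicing factor genes with several probes (y axis). Left, mean log2 ratio of embryo over reference over the 6 arrays, a point for each probe. Right, the difference of each probe with its SE. The probes of Rsrc1 spread from -2.94 to 0.82 in mean ratio and from -1.19 to 0.65 in difference.

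The 250 bases before the start of transcription are shown for the 5 genes at an unadjusted p under 0.05, so that the regulatory sequence of the higher and the lower genes can be set side by side. They are RefSeq sequences of mouse assembly GRCm38.p6, written 5′ to 3′ on the strand of the gene: Pnn at chr12:59066669-59066918 (plus strand), Hnrnpd at chr5:99978939-99979188 (minus), Cdc40 at chr10:40883144-40883393 (minus), Srsf6 at chr2:162931258-162931507 (plus) and Prpf31 at chr7:3629735-3629984 (plus). Capitals mark matches, on either strand, to 4 motifs, none of which contains another. The CAAT box was searched as CCAAT. For the GC box the letters were GGGCGG. For the ETS motif they were CCGGAAGT. The TATA element was TATAAA.
Pnn: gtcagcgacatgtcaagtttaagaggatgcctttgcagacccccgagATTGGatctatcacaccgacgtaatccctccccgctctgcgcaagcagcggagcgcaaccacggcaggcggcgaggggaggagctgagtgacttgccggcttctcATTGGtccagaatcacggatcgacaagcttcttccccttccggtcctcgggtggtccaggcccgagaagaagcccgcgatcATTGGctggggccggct
Hnrnpd: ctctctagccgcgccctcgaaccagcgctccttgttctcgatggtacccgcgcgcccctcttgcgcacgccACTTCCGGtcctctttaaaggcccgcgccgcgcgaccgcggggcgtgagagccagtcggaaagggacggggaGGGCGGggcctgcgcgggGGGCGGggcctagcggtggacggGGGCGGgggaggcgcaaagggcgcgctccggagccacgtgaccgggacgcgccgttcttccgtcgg
Cdc40: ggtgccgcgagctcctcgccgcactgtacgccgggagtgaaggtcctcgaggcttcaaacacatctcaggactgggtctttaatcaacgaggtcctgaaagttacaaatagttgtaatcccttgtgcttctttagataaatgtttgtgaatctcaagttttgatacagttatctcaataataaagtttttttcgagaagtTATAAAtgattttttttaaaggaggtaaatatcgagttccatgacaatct
Srsf6: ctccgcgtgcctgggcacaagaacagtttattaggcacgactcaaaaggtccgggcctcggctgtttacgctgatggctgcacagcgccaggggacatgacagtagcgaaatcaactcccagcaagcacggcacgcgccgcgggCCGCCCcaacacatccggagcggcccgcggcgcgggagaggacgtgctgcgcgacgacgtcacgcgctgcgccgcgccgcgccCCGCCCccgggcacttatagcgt
Prpf31: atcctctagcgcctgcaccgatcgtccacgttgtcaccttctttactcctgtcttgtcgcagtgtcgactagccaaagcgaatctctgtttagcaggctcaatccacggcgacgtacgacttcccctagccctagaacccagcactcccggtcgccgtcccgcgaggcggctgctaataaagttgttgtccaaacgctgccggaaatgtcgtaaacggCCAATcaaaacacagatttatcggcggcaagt

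Pnn has 3 CAAT boxes in this window and Prpf31 has 1, Hnrnpd has 3 GC boxes and an ETS motif, Srsf6 has 2 GC boxes, and Cdc40 has a TATA element. The windows differ in base composition, from 39.6% G and C in Cdc40 to 74.4% in Hnrnpd. No motif was found in both higher genes, and none in all 3 lower genes. None of these genes passed the adjusted threshold, so higher and lower only describe these arrays. Pnn and Cdc40 had also been added to the selection for small p-values, so this comparison of motifs supports nothing. A window was found for 34 of the 36 splicing factors and for 3763 of all tested genes, with a median of 60.4% and 59.2% G and C. The ETS motif was present in 6 splicing factors, or 17.6%, against 5.53% of all tested genes: Hnrnpd, Prpf4b, Sf3a3, Sf3b2, Srsf11 and Srsf4. The CAAT box was present in 55.9% against 39.8%, the GC box in 67.6% against 59.1% and the TATA element in 14.7% against 9.97%. A match is a run of letters and not a site.

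Beyond these families, a list of 117 other splicing genes was compared, of which 42 were measured with 1 symbol. By limma 0 passed the adjusted threshold (lowest adjusted p 0.717). The median difference was 0.10. At an unadjusted p under 0.05, 5 were higher and 1 lower, 11.9% and 2.38% against 4.28% and 2.36% of all genes. The groups did not overlap in 5 on the higher side and 2 on the lower, 11.9% and 4.76% against 6.01% and 5.90%. Cwc22, which the spliceosome needs to deposit the exon junction complex, read -1.18, -1.36 and -2.90 after cycloheximide and -3.83, -3.10 and -3.79 after strontium, a difference of 1.76 (SE 0.50). Luc7l, related to a yeast U1 protein, read -0.24, -1.46 and -1.15 against -3.55, -2.31 and -2.0, a difference of 1.67 (SE 0.50). Both of its probes lay above 0, at 2.71 and 0.63. In both genes the groups did not overlap. The other 3 on the higher side were Raly, an hnRNP-related protein, at 0.51 (SE 0.18), Alyref, an mRNA export adaptor, at 0.58 (SE 0.21), and Tardbp, the RNA-binding protein TDP-43, at 1.11 (SE 0.43). The 1 gene lower at an unadjusted p under 0.05 was Ik, a factor of the precatalytic spliceosome, at -0.84 (SE 0.33). Next in order of p on that side were Srpk1, a kinase of SR proteins, at -0.82 (SE 0.34), and Ppih, a cyclophilin of the tri-snRNP, at -0.56 (SE 0.25). Without array 3 of cycloheximide, 6 of the 42 were higher and 6 lower at an unadjusted p under 0.05, or 14.3% on each side against 7.36% and 11.5% of all genes, with a median difference of 0.05.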

How the data were processed

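Transcripts of parthenogenetic mouse embryos were measured on 6 two-colour arrays, 3 for each activation. The deposited table gives log10 ratios of the channels for 22132 probes, made by the authors with Agilent Feature Extraction, per the submitters' processing notes. Its version, background correction and dye normalization were not given in the sources used here. Values end at -2 and 2 (log10), so ratios beyond 100-fold are reduced. The sign was turned, and a factor of 3.32 made the values log2 ratios of embryo to reference. Array medians of the log10 values ran from -0.0602 to -0.0313. Without spot intensities the signal of a probe over its background is unknown, and precision is limited by how many arrays there are.

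Of the probes, 6249 had 1 gene symbol in the platform annotation, 9389 several and 6494 were unlisted; 6179 of the first matched the RefSeq mouse table. Left out were 211 probes that stood at exactly 0 throughout. Differences were fitted per gene over all 4742 genes, and per probe over 21921 probes, with limma 3.58.1 (lmFit, eBayes, Benjamini-Hochberg, threshold 0.05) in R 4.3.3, without further normalization. The fit was tested on simulated data. Python 3.11.15, pandas 2.3.3, NumPy 2.4.6 and matplotlib 3.10.9 were used otherwise. The members, the lists and the alternatives were chosen with earlier results of these arrays known. Described in full were Pnn, Cdc40, Rsrc1, genes at an unadjusted p under 0.05, and in each other family the genes with the smallest p on each side of 0 and with the highest and lowest ratio. Of the other splicing genes, those with the 3 smallest p on each side were to be named. Alyref, Tardbp, Srsf11 and the differences of the remaining members were added after their values were seen. Alternatives changed the scaling, the treatment of values at 0 or at a limit, the probe summary, the weights, the block, the position correction and the arrays used.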

Additional observations from a re-analysis of the deposited data

How the results depend on the processing

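By limma 0 splicing factors were higher and 0 lower at the adjusted threshold under all 17 alternatives, with a lowest adjusted p of 0.128, under array weights, whose estimate stopped before it converged. At an unadjusted p under 0.05 the main counts were 2 higher and 3 lower. With array weights they were 4 and 4, where 9.43% of all genes were higher and 11.3% lower. With probes at a limit left out, which removes Pnn, 1 was higher, against 4.21% of all genes. With each probe tested on its own, 5 of the 49 probes were lower, against 2.32% of all probes. Among them were the probe of Cdc40 and probes 463 and 22475 of Rsrc1. Both genes were added to the selection for small p-values, so that count supports nothing. Leaving out 1 array gave 2 to 4 higher and 1 to 3 lower, where 2.30% to 7.36% of all genes were higher and 1.27% to 11.5% lower. The 4 higher came without array 3 of strontium and the 1 lower, Cdc40, without array 1 of cycloheximide. The median difference of the 36 genes ran from -0.0387 to 0.0896 over all alternatives. With the replicate block the counts were 2 and 3, where 6.62% of all genes were higher and 3.73% lower. The lowest adjusted p of a splicing factor by limma was then 0.454. Between arrays of the same number, deviations from the group means had correlations of 0.056, 0.379 and 0.501, so the numbers were not taken to pair the arrays. Array 1 of cycloheximide was closest to array 2 of strontium, at 0.457. Of 441 alternative values of 26 named genes, 19 had the opposite sign in 9 genes and 0 passed the adjusted threshold. With each probe tested on its own, only the probe with the smallest p stood for a gene. The 19 thus leave out probes 11203 and 13861 of Rsrc1, which had the opposite sign. Srsf9 was at 0.25 with array weights, Hnrnpr at 0.0286 after centring by line and Sf3b1 at -0.0401 after quantile normalization. Over the leaving out of each array, differences ran from -0.0294 to 2.23 for Hnrnpa2b1, -0.24 to 0.0102 for Hnrnpr, -0.79 to 0.0844 for Prpf38a, -0.11 to 0.27 for Sf3b1, -1.17 to 0.0076 for Sf3b3, -0.89 to 0.26 for Snrpb2, -1.01 to 0.0659 for Snrpn, -0.73 to 0.0402 for Srsf1 and -0.45 to 0.54 for Srsf9. The cause was not tested. Of 102 alternative family medians 7 moved by more than 1 SD, taken within groups from the family's median ratio on each array. Where that SD is wide, large moves are not counted. The Prpf median, -0.32 with all arrays, ran from -0.69 to -0.09 when 1 array was left out, within 1 SD. Signal over background, which limits the precision of low ratios, was not analysed here.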
